A study of Ailuropoda melanoleuca with 25 samples.

Results

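Lung and kidney tissue from the same 5 giant pandas was compared, gene by gene, in 10 of the 25 messenger RNA libraries of the study, which also holds the heart, liver and spleen. Each tissue had 5 libraries, 1 from each panda, and libraries with the same number came from the same animal. All were captive animals that had died, and all tissue was frozen in liquid nitrogen. Panda 1 was a female with a labelled age of 27 that died of ovarian cancer, and panda 2 a female with a labelled age of 9 and a cause of death given as "ileac pssion". Pandas 3 and 4 were females and panda 5 a male, each with a labelled age of 0.5, and coronavirus infection was the cause for all 3, in the same year. The labels give no unit for age and no genotype or experimental treatment. Since the 3 young animals share their age with the cause and the year, these cannot be told apart.

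Both organs are built from epithelium that lines tubes and sacs, with capillaries close beneath it. In the lung, thin alveolar type 1 cells exchange gas, alveolar type 2 cells secrete surfactant, the lipid and protein film that lowers surface tension, and ciliated and secretory cells line the airways. In the kidney, the glomerulus filters plasma, the proximal tubule takes back sugar, amino acids, phosphate and proteins and secretes organic ions, and the thick limb, distal tubule and collecting duct adjust salt, acid and water. The lung epithelium comes from endoderm and the nephron from intermediate mesoderm.

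Abundance was given as FPKM, the fragments mapped to a gene scaled by its length and by the depth of the library. The reads counted on genes were recovered from these values and came to between 13149580 and 16215829 per lung library and between 13982822 and 17336596 per kidney library. At that depth 3 reads on a gene of 1000 bases correspond to 0.185 to 0.228 FPKM in the lung and 0.173 to 0.215 FPKM in the kidney, counting error only, so a gene listed at 0 may lie anywhere below about that level. The labels held in all 10 libraries, since each lung had at least 11570.0 FPKM of SFTPC, a surfactant protein gene, against at most 9.28 FPKM in a kidney. However, the kidney of panda 4 stood apart from the other kidneys. Its 100 most abundant genes held 51.1% of all FPKM, against 31.9% to 42.4% in the other kidneys, and genes of the nephron lay far below their level in the other animals, as described for each segment. The lung of panda 4 was nearly devoid of ciliated cell genes, and the lung of panda 3 was low in surfactant genes and high in B cell genes. In tissue libraries fewer cells of a type and less RNA per cell cannot be told apart. Some of the counts are also given without one of these libraries.

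Differences were tested with limma on log2(FPKM + 1), and each is given as lung minus kidney on that scale, with its standard error (SE). A gene was tested if its mean exceeded 1 FPKM in the lung or the kidney, and was a DEG if the adjusted p (Benjamini-Hochberg) was under 0.05 and the log2 difference larger than 2. Of 17177 genes tested, 2103 were DEGs (12.2%), and 46.5% passed the adjusted p alone. More of them were higher in the lung (1264, 7.36% of the genes tested) than in the kidney (839, 4.88%). That order turned with the scaling of the libraries, because the median gene lay 0.43 higher in the lung on the log2 scale. After trimmed-mean (TMM) scaling, which brought the median to 0.02, 790 DEGs had the higher mean in the lung and 1147 in the kidney, and quantile normalization gave 886 and 1020. Without the kidney of panda 4 the counts were 1343 and 1056. The libraries of the tissues did not overlap for 1162 of the 1264 DEGs higher in the lung and for 713 of the 839 higher in the kidney, against 22.9% (lung above) and 8.2% (kidney above) of all genes tested.

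Gene names came from the study's list of tissue-specific DEGs, which was chosen on these same libraries. Names were usable for 1418 of the genes tested, and 39.6% of these were DEGs, 239 higher in the lung and 322 higher in the kidney. The share among named genes is thus far above the 12.2% of all genes by the way the names were obtained, and the counts by gene list given below are not independent evidence of direction. Most of the difference between the tissues lay in genes with no name here, namely 904 DEGs higher in the lung and 402 higher in the kidney among 13028 annotated genes without a name, and 121 and 115 among 2731 genes assembled by the authors.

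**Figure D1:**
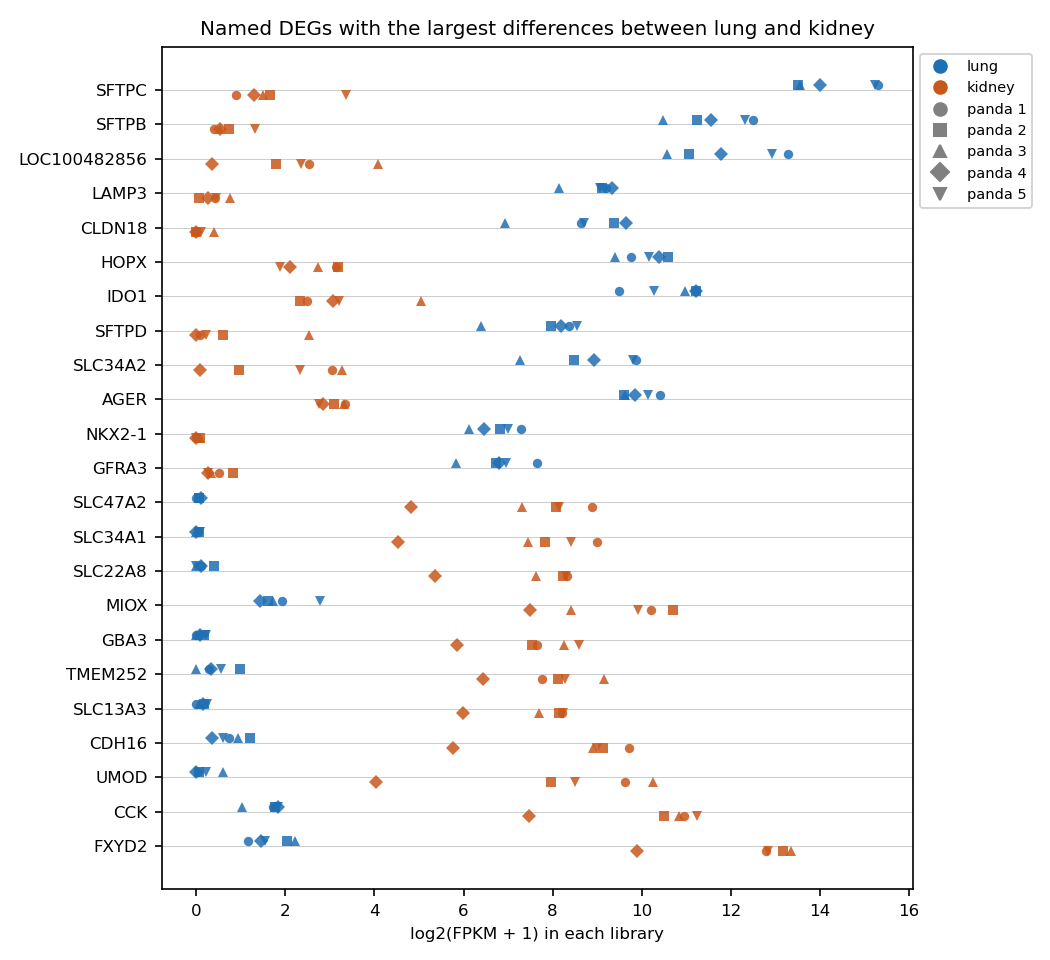
Values of 12 named DEGs higher in the lung and 11 higher in the kidney with the largest log2 differences, among those whose libraries did not overlap. The x axis is log2(FPKM + 1), each point is 1 library (blue lung, orange kidney, marker shape by panda), and the kidney of panda 4 (orange diamonds) is the lowest kidney for all 11 genes higher in the kidney.

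The named genes that set the lung furthest from the kidney encoded surfactant proteins. SFTPC, which encodes the hydrophobic surfactant protein C, measured 40781, 11570.0, 12096, 16359 and 38499 FPKM in the lungs of pandas 1 to 5 and 0.851, 2.16, 1.81, 1.47 and 9.28 FPKM in their kidneys, a log2 difference of 12.58 ± 0.48, adjusted p = 2.56e-09. SFTPB, for surfactant protein B, measured 5807, 2413, 1428, 3025 and 5134 FPKM in the lungs and 0.32, 0.67, 0.448, 0.441 and 1.48 FPKM in the kidneys (10.92 ± 0.36, adjusted p = 5.52e-10). LOC100482856, described in the study's table as pulmonary surfactant-associated protein A, had 9907, 2141, 1515, 3512 and 7796 FPKM in the lungs and 4.78, 2.46, 16.04, 0.284 and 4.103 FPKM in the kidneys (9.70 ± 0.64, adjusted p = 2.65e-07). For all 3 genes the lungs of pandas 1 and 5 were the highest, and every lung was above every kidney. SFTPD, the collectin surfactant protein D, was lower at 82.7 to 375 FPKM in the lungs, with a trace of 4.78 FPKM in the kidney of panda 3 and at most 0.511 FPKM in the others.

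All 11 tested members of the list for alveolar type 2 cells and surfactant were DEGs higher in the lung, with a median log2 difference of 6.94 against 0.43 over all genes tested, and in none did the tissues overlap. Of the 12 genes fixed for the list, 11 had a name, and 10 of those were in the study's lung list. LAMP3, a membrane protein of the lamellar bodies that store surfactant, measured 591, 555, 279.9, 645 and 530.2 FPKM in the lungs and 0.333, 0.0448, 0.681, 0.192 and 0.369 FPKM in the kidneys (8.58 ± 0.27, adjusted p = 4.69e-10). NKX2-1, the homeodomain factor that specifies lung epithelium, measured 157, 112, 68.8, 86.7 and 126 FPKM in the lungs and was listed at 0 in 3 kidneys and at 0.0614 and 0.0667 FPKM in the others. CLDN18, a tight junction claudin, measured 399.7, 660.1, 122, 801 and 414 FPKM in the lungs and at most 0.319 FPKM in a kidney (8.56 ± 0.42, adjusted p = 2.66e-08). Among the lungs that of panda 3 was the lowest for 10 of the 11 genes, with a median of 0.349 times the mean of the other 4 lungs.

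SLC34A2, the sodium phosphate cotransporter of type 2 cells, measured 939, 357, 154, 487 and 891 FPKM in the lungs and 7.25, 0.942, 8.66, 0.0592 and 3.99 FPKM in the kidneys (6.94 ± 0.63, adjusted p = 3.21e-06). Its family member SLC34A1, which carries phosphate in the proximal tubule, ran the other way, with at most 0.0657 FPKM in a lung and 512, 225, 174, 22.1 and 341 FPKM in the kidneys (-7.41 ± 0.64, adjusted p = 2.09e-06). Neither gene overlapped between the tissues. SLC34A3, a further member of that family, was also a DEG higher in the kidney (-3.36 ± 0.56, adjusted p = 0.000393).

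All 4 tested genes of alveolar type 1 cells were DEGs higher in the lung (median 5.57), of 9 fixed, the others having no name. HOPX, a homeodomain-only protein, measured 872, 1548, 672, 1342 and 1146 FPKM in the lungs and 7.73, 8.05, 5.64, 3.33 and 2.67 FPKM in the kidneys (7.46 ± 0.32, adjusted p = 6.06e-09). AGER, the receptor for advanced glycation end products, measured 1358, 771, 790.4, 925 and 1125 FPKM in the lungs and 9.13, 7.502, 9.02, 6.14 and 5.73 FPKM in the kidneys (6.86 ± 0.23, adjusted p = 6e-10). AGER varied little between animals and its SE was the smallest among the genes plotted with the largest differences. The water channel AQP4 was low in the lung, at 30.3, 16.4, 22.7, 6.76 and 25.5 FPKM, and at most 0.127 FPKM in a kidney (4.21 ± 0.36, adjusted p = 1.77e-06). RTKN2 measured 69.4, 71.3, 44.2, 81.5 and 137 FPKM in the lungs and up to 9.15 FPKM in a kidney (4.29 ± 0.54, adjusted p = 4.26e-05).

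Further genes among the 12 largest differences of named genes were not surfactant genes. IDO1, an enzyme that degrades tryptophan and is known for restraining T cells, measured 713, 2395, 2018.4, 2401 and 1237 FPKM in the lungs and 4.56, 4.02, 31.97, 7.35 and 8.21 FPKM in the kidneys (7.42 ± 0.49, adjusted p = 2.65e-07). Panda 1 had the lowest lung value, and the tissues did not overlap. GFRA3, a receptor of the GDNF ligand family, measured 199.9, 106, 55.9, 110.4 and 122 FPKM in the lungs and at most 0.773 FPKM in a kidney (6.35 ± 0.32, adjusted p = 3.51e-08), again without overlap.

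Airway secretory genes were higher in the lung for 9 of 11 tested members (median 3.57), and none was a DEG higher in the kidney. Without the lung of panda 4, 10 were DEGs. CXCL17, a chemokine of mucosal surfaces, measured 2459, 1806, 1428, 2441 and 2236 FPKM in the lungs and 44.7, 32.6, 35.1, 8.81 and 57.6 FPKM in the kidneys (6.004 ± 0.40, adjusted p = 2.94e-07). SCGB3A1, a secretoglobin of airway secretory cells, measured 123, 69.2, 167, 1.34 and 279.5 FPKM in the lungs and at most 1.603 FPKM in a kidney (5.31 ± 0.99, adjusted p = 0.000881). For SCGB3A1 the lung of panda 4 lay at the level of a kidney, whereas it was near the other lungs for CXCL17. GPRC5A, an orphan receptor of lung epithelium, measured 173, 203, 65.7, 190.4 and 230.2 FPKM in the lungs and 4.56, 7.03, 7.402, 3.19 and 4.599 FPKM in the kidneys. VSIG2 measured 44.6, 97.1, 56.6, 104 and 49.6 FPKM in the lungs and 1.88, 8.16, 3.04, 17.3 and 1.497 FPKM in the kidneys (3.62 ± 0.51, adjusted p = 9.79e-05). CFTR, the chloride channel mutated in cystic fibrosis, measured 7.77, 11.5, 4.26, 9.78 and 9.13 FPKM in the lungs and at most 0.348 FPKM in a kidney (3.03 ± 0.27, adjusted p = 2.99e-06).

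Of the 20 tested motile cilium genes, 10 were DEGs higher in the lung and the other 10 were not DEGs (median 2.05). The count turned on single lungs. In the lung of panda 4 the summed level of the list was 30.1 FPKM against 215 to 513 FPKM in the other lungs. That library was the lowest lung for 19 of the 20 genes, at a median of 0.0308 times the mean of the other lungs. Without it 15 genes were DEGs, and without the lung of panda 3, the highest lung for 18 of them, 6 of 19 were. Without the lung of panda 2 the count was 7, without the kidney of panda 4 9, after TMM scaling 6 and in the young pandas alone 4. With 0.1 in place of 1 added to the FPKM it was 16. By adjusted p alone, with no limit on the difference, 19 of the 20 genes were higher in the lung. RSPH1, a radial spoke protein of the axoneme, measured 21.1, 44.98, 64.5, 2.17 and 21.3 FPKM in the lungs and 1.59, 0.671, 1.46, 0.0652 and 0.627 FPKM in the kidneys (3.59 ± 0.65, adjusted p = 0.000724). SNTN, a protein at the tip of cilia, measured 8.59, 12.8, 51.96, 0.313 and 14.6 FPKM in the lungs and was listed at 0 in every kidney. PIFO (3.17) was a DEG, too. CAPS, a calcium-binding protein of ciliated cells, measured 45.8, 34.6, 54.8, 0.564 and 30.5 FPKM in the lungs and 8.73, 1.74, 5.15, 0.338 and 3.01 FPKM in the kidneys (2.47 ± 0.86, adjusted p = 0.0313). The call on CAPS was lost on leaving out any 1 of 7 libraries (adjusted p 0.0523 to 0.0803) and after TMM scaling (adjusted p = 0.0559).

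FOXJ1, the transcription factor that switches on motile cilium genes, did not separate the tissues. It measured 61.4, 102, 107, 1.33 and 21.3 FPKM in the lungs and 82.7, 23.3, 23.99, 1.77 and 33.5 FPKM in the kidneys, a difference of 0.58 ± 1.03, adjusted p = 0.665, which was -0.16 without the kidney of panda 4. The kidney of panda 1 held more FOXJ1 than 3 of the 5 lungs. In contrast, SNTN was listed at 0 in the kidneys and RSPH1 was below 2 FPKM in all of them. All lung libraries other than that of panda 4 lay above all kidney libraries for 19 of the 20 genes, and FOXJ1 was the exception.

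**Figure D2:**
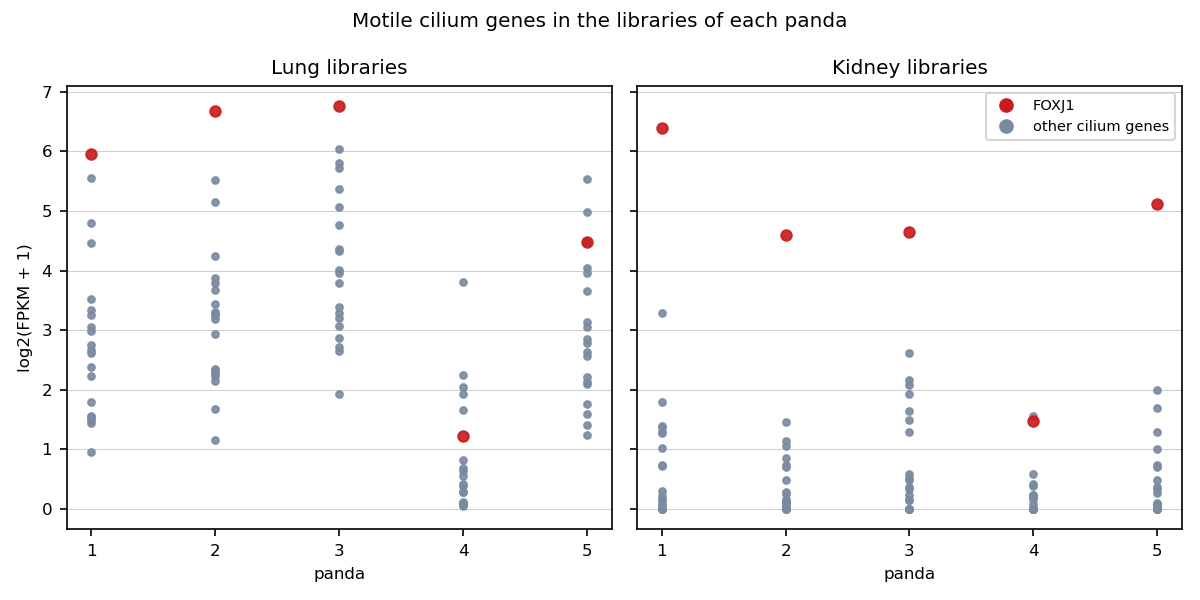
Motile cilium genes, log2(FPKM + 1) on the y axis and panda on the x axis, lung libraries left and kidney libraries right. Each point is 1 gene and FOXJ1 is red. Panda 4's lung sits near the kidney level, and FOXJ1 stays high in the kidneys of pandas 1, 2, 3 and 5 while the other cilium genes do not.

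Genes of lung mesenchyme and endothelium were DEGs in both directions, 11 of 13 higher in the lung and 2 higher in the kidney (median 3.05). FOXF1, a forkhead factor of lung mesenchyme and capillaries, measured 119, 252, 86.98, 275 and 58.8 FPKM in the lungs and 5.07, 4.31, 2.08, 0.558 and 1.52 FPKM in the kidneys (5.35 ± 0.48, adjusted p = 2.71e-06). TBX4, a T-box factor of lung mesenchyme, measured 43.7, 14.4, 15.2, 17.5 and 26.3 FPKM in the lungs and at most 0.0434 FPKM in a kidney (4.46 ± 0.32, adjusted p = 4.52e-07). CD93, a receptor of endothelial and myeloid cells, measured 511, 177, 146, 184 and 311 FPKM in the lungs and 23.04, 7.57, 13.6, 19.4 and 10.1 FPKM in the kidneys (4.02 ± 0.38, adjusted p = 4.01e-06). FGF10, the growth factor of lung branching, was even among the lungs at 15.3, 18.9, 15.00, 16.7 and 14.4 FPKM and reached 1.76 FPKM in the kidney of panda 4 against at most 0.569 FPKM in the other kidneys.

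The exceptions both encode surface proteins known from capillaries. CA4, a carbonic anhydrase of lung capillaries that the proximal tubule also carries, measured 18.3, 31.5, 42.1, 40.4 and 21.3 FPKM in the lungs and 192, 167, 205, 368 and 224 FPKM in the kidneys (-2.89 ± 0.29, adjusted p = 7.65e-06). CD300LG, a receptor of capillary endothelium, measured 0.0606, 0.15, 0.143, 0.202 and 0.124 FPKM in the lungs and 9.77, 11.003, 1.48, 50.8 and 2.04 FPKM in the kidneys (-2.94 ± 0.65, adjusted p = 0.00267). For both genes the kidney of panda 4 was the highest library of all 10. They stayed DEGs without it (-2.71 and -2.30).

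Most immune cell genes tested were higher in the lung. The study's lung list held 4 of the 10 B cell genes, 2 of the 8 T cell genes and all 6 macrophage and dendritic cell genes. The rest have a name only because the study listed them under another tissue, as CD22 under the spleen. These counts are thus not independent evidence of direction either. Of the B cell and plasma cell genes 6 of 10 were DEGs higher in the lung (median 2.24), of the T cell genes 6 of 8 (median 2.48), and of the macrophage and dendritic cell genes 4 of 6 (median 2.99). These lists fixed 12, 10 and 13 genes in that order, and the members without a usable name were not examined. Without the kidney of panda 4, and likewise without the lung of panda 3 or after TMM scaling, 5 T cell genes were DEGs. No gene of these lists was a DEG higher in the kidney, but ACP5 became one under some alternatives. ACP5, an acid phosphatase of macrophages, measured 32.4, 9.66, 14.6, 12.8 and 38.4 FPKM in the lungs and 79.1, 74.4, 95.5, 22.4 and 80.2 FPKM in the kidneys (-1.71 ± 0.45, adjusted p = 0.00755), and was a DEG higher in the kidney without the kidney of panda 4 (-2.07), after TMM scaling (-2.19) and in pandas 1 and 2 alone (-2.04). IGHM, the constant region of immunoglobulin M, measured 158, 173, 479.5, 252 and 183 FPKM in the lungs and 4.14, 12.8, 15.7, 7.84 and 4.44 FPKM in the kidneys (4.67 ± 0.39, adjusted p = 1.77e-06). JCHAIN, which joins the units of secreted IgM and IgA, measured 203, 180.0, 846, 249.5 and 469.6 FPKM in the lungs and 21.9, 25.2, 43.5, 14.99 and 34.9 FPKM in the kidneys (3.58 ± 0.42, adjusted p = 2.38e-05). Panda 3 had the highest lung value for all 10 B cell genes, at a median of 3.44 times the mean of the other lungs, and without it 5 of 8 tested genes were DEGs. CD79A (2.95) and CD22 (2.52), both of the B cell receptor complex or its regulation, were also DEGs.

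CD3E, CD3D and CD3G, which form the signalling part of the T cell receptor, differed by 3.17, 3.12 and 2.59 on the log2 scale, and CD7, a surface protein of T and natural killer cells, by 3.73. CD3E measured 13.1, 27.5, 21.2, 25.3 and 11.5 FPKM in the lungs and 0.236, 1.81, 1.86, 2.54 and 0.391 FPKM in the kidneys (3.17 ± 0.38, adjusted p = 2.78e-05). Beside IDO1, the macrophage and dendritic cell list was led by FPR2 (4.67), a formyl peptide receptor of phagocytes, CLEC10A (3.28), a lectin of macrophages and dendritic cells, and MILR1 (2.71).

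**Figure D3:**
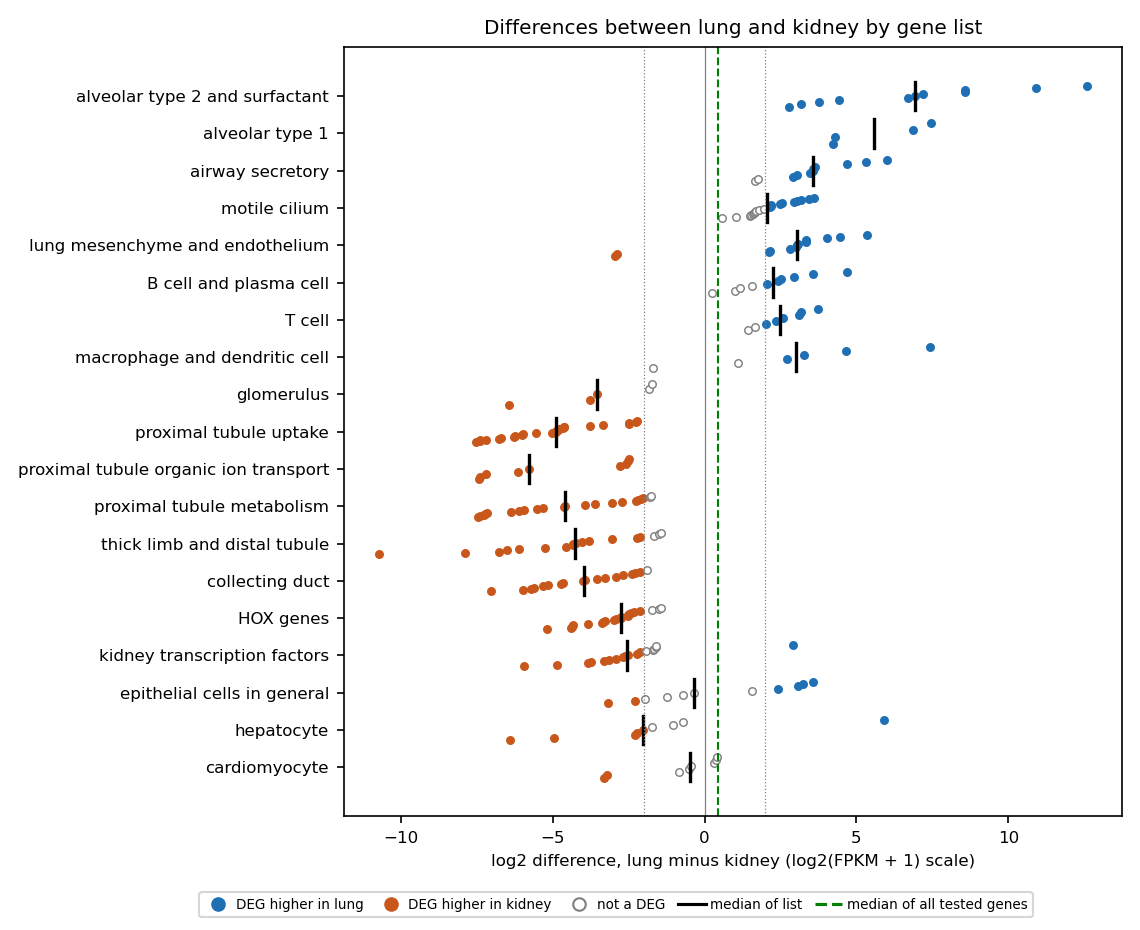
Log2 difference, lung minus kidney, of each tested gene by list. Filled points are DEGs (blue higher in the lung, orange higher in the kidney), open points are not, the black bar is the median of the list, dotted lines stand at -2 and 2, and the dashed green line is the median of all tested genes (0.43). Lung lists lie right of it, and lists of the nephron left, with the epithelial list spread over both sides.

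On the kidney side, the largest difference of a named gene was that of FXYD2, which encodes the gamma subunit of the sodium pump of the nephron. It measured 1.25, 3.07, 3.67, 1.73 and 1.92 FPKM in the lungs and 7068, 9225, 10438, 948 and 7338 FPKM in the kidneys, a log2 difference of -10.73 ± 0.54, adjusted p = 3.51e-08. Second among named genes came CCK, the gene of the peptide hormone cholecystokinin, with 2.304, 2.404, 1.04, 2.56 and 2.55 FPKM in the lungs and 1970.4, 1451, 1836, 176 and 2426 FPKM in the kidneys (-8.56 ± 0.58, adjusted p = 3.01e-07). CDH16, a cadherin of the nephron, measured 0.669, 1.31, 0.905, 0.275 and 0.508 FPKM in the lungs and 842, 559, 480.2, 53.3 and 507 FPKM in the kidneys (-7.74 ± 0.59, adjusted p = 7.34e-07). For each of these genes the kidney of panda 4 was far below the other kidneys and still above every lung. Without that library the differences lay further from 0, at -11.36, -9.25 and -8.42. TMEM252 (-7.52) and GBA3 (-7.49), a cytosolic beta-glucosidase, were also among the 12 largest of named genes. Of the genes without a name here, ENSAMEG00000012718 (-9.88) and ENSAMEG00000000631 (-9.15) lay between FXYD2 and CCK.

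All 25 tested genes of proximal tubule uptake were DEGs higher in the kidney, with a median of -4.91, and the tissues did not overlap in 23 of them. SLC13A3, a carrier of dicarboxylates, measured 0, 0.126, 0.0403, 0.114 and 0.175 FPKM in the lungs and 295, 280.0, 208, 62.4 and 301 FPKM in the kidneys (-7.53 ± 0.39, adjusted p = 4.26e-08). SLC5A12, a lactate carrier, measured 265, 279, 341, 54.5 and 298 FPKM in the kidneys and at most 0.469 FPKM in a lung (-7.39 ± 0.43, adjusted p = 1.04e-07). SLC6A18, a carrier of neutral amino acids, measured 363, 220.1, 391, 16.03 and 193 FPKM in the kidneys and at most 0.199 FPKM in a lung (-7.19 ± 0.68, adjusted p = 4.35e-06). All 3 were near 0 in the lung and lowest in the kidney of panda 4. SLC5A2, the glucose carrier SGLT2, measured 4.96, 3.36, 4.63, 3.03 and 4.78 FPKM in the lungs and 422, 197, 141, 23.01 and 289 FPKM in the kidneys (-4.91 ± 0.59, adjusted p = 3.23e-05). The receptors that take filtered proteins back, LRP2 (megalin, -5.56) and CUBN (cubilin, -4.63), were DEGs as well. The water channel AQP1 was abundant in both organs, at 392, 126, 87.5, 141 and 360.3 FPKM in the lungs and 1593, 932, 2089, 273 and 1438 FPKM in the kidneys, a DEG (-2.48 ± 0.55, adjusted p = 0.00273) for which only the kidney of panda 4 lay below some lungs.

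Every tested gene of organic ion transport was likewise a DEG higher in the kidney (9 of 9, median -5.80). SLC22A8, the organic anion transporter OAT3, measured 321, 298, 197, 40.3 and 316 FPKM in the kidneys and at most 0.325 FPKM in a lung (-7.45 ± 0.49, adjusted p = 2.65e-07). SLC47A2, which exports organic cations in exchange for protons, measured 473, 270.1, 157, 27.1 and 283 FPKM in the kidneys and at most 0.0782 FPKM in a lung (-7.39 ± 0.59, adjusted p = 1.05e-06). SLC22A12, the urate carrier URAT1, and SLC22A6, the anion transporter OAT1, differed by -7.19 and -6.15. These carriers were at or near 0 throughout the lung.

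Among genes of proximal tubule metabolism 20 of 22 were DEGs higher in the kidney (median -4.62), and 22 of 22 were without the kidney of panda 4. MIOX, which opens the ring of myo-inositol, measured 2.803, 2.04, 2.29, 1.68 and 5.83 FPKM in the lungs and 1192, 1675, 339.8, 178 and 968 FPKM in the kidneys (-7.46 ± 0.53, adjusted p = 4.67e-07). DAO, D-amino acid oxidase, and ACSM2B, an acyl-CoA synthetase of mitochondria, differed by -7.27 and -7.23. CYP24A1, the enzyme that inactivates vitamin D, measured 217, 59.96, 84.1, 18.3 and 232 FPKM in the kidneys and was listed at 0 in 3 lungs (-6.39 ± 0.56, adjusted p = 2.4e-06). KL, the co-receptor klotho of the phosphate hormone FGF23, was also a DEG (-5.53 ± 0.50, adjusted p = 2.89e-06).

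Further along the nephron, 15 of 18 tested genes of the thick limb and distal tubule were DEGs higher in the kidney (median -4.27), and 16 were without the kidney of panda 4. UMOD, uromodulin, the main protein of normal urine, measured 0.0319, 0.0394, 0.527, 0 and 0.164 FPKM in the lungs and 783, 248, 1217, 15.4 and 361 FPKM in the kidneys (-7.89 ± 0.87, adjusted p = 1.52e-05). SLC12A3, the thiazide-sensitive sodium chloride carrier of the distal tubule, measured 262, 151, 182, 17.9 and 159 FPKM in the kidneys and at most 0.148 FPKM in a lung (-6.78 ± 0.57, adjusted p = 1.69e-06). SLC12A1, the furosemide-sensitive carrier of the thick limb, measured 304, 24.1, 415, 2.47 and 161 FPKM in the kidneys (-6.10 ± 1.03, adjusted p = 0.000424), and CALB1, a calcium-binding protein of the distal tubule, 281, 27.05, 477, 5.55 and 451 FPKM (-6.50 ± 0.99, adjusted p = 0.000192). Unlike SLC12A3, the genes SLC12A1 and CALB1 were low in the kidney of panda 2 as well as in that of panda 4. CLDN16, the claudin that lets magnesium pass in the thick limb, was listed at 0 in every lung and measured 28.5, 0.446, 40.2, 0 and 20.5 FPKM in the kidneys (-3.04 ± 0.91, adjusted p = 0.0154), so that the kidney of panda 4 could not be told from a lung.

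In the collecting duct list 17 of 18 tested genes were DEGs higher in the kidney (median -3.97), and all 18 were without the kidney of panda 4. The ammonia channels RHCG and RHBG differed by -7.03 ± 0.54, adjusted p = 8.84e-07 and -5.98 ± 0.50, adjusted p = 1.75e-06. RHCG measured 279, 235, 193, 24.5 and 236 FPKM in the kidneys and at most 0.259 FPKM in a lung, with the kidney of panda 4 far below the rest. SLC4A9, a bicarbonate carrier of intercalated cells, measured 0.964, 0.517, 1.66, 1.19 and 1.66 FPKM in the lungs and 306, 81.5, 265, 11.9 and 221 FPKM in the kidneys (-5.73 ± 0.70, adjusted p = 3.52e-05). CA2, the cytosolic carbonic anhydrase, measured 5.100, 4.16, 7.31, 2.61 and 7.73 FPKM in the lungs and 470.0, 322, 389, 71.7 and 533 FPKM in the kidneys (-5.61 ± 0.48, adjusted p = 2e-06). SLC4A1, band 3, which both red cells and intercalated cells carry, measured 38.1, 13.5, 20.6, 2.82 and 25.4 FPKM in the kidneys and at most 0.0519 FPKM in a lung (-4.01 ± 0.50, adjusted p = 3.93e-05), and was the only gene with a name on the erythrocyte list.

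The glomerulus list had the fewest named genes of the nephron lists (5 of 10 fixed), and 3 of the 5 tested were DEGs higher in the kidney (median -3.54). NPHS1, nephrin of the slit diaphragm, measured 45.5, 11.5, 14.1, 0.701 and 31.5 FPKM in the kidneys and at most 0.0335 FPKM in a lung (-3.76 ± 0.68, adjusted p = 0.000681). CRB2, a polarity protein of podocytes, was not a DEG (-1.84 ± 0.51, adjusted p = 0.0104). All 5 genes were highest in the kidney of panda 1 and lowest in that of panda 4, and without the latter all 5 were DEGs.

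Within the kidneys, the level of nephron genes thus differed between animals and between gene lists. The kidney of panda 4 was the lowest of the kidneys for 24 of 25 uptake genes, all 9 organic ion genes, 21 of 22 metabolic genes, all 18 genes of the thick limb and distal tubule, all 18 collecting duct genes and all 5 glomerulus genes. Set against the mean of the other kidneys, its median ratio was 0.174 for metabolism, 0.117 for uptake, 0.115 for the collecting duct, 0.0448 for the thick limb and distal tubule and 0.0273 for the glomerulus. Over all genes tested the ratio was 0.635 and that kidney was the lowest for 43.9%. Its ratios were low outside the nephron lists too, at 0.0517 for motile cilium and 0.236 for airway secretory genes. Its B cell genes stood at 1.91, macrophage and dendritic cell genes at 1.57 and genes of lung mesenchyme and endothelium at 1.43. Set against the mean of the kidneys of pandas 1, 3 and 5, the kidney of panda 2 had a median ratio of 0.326 for the thick limb and distal tubule, 0.472 for the collecting duct, 0.518 for the glomerulus, 0.657 for uptake and 0.912 for proximal tubule metabolism. Low ratios in that kidney were not confined to the nephron, with 0.383 for cardiomyocyte and 0.427 for motile cilium genes. HOX genes stood at 0.832 and B cell genes at 1.405. These ratios are on unscaled FPKM. The TMM factor was 0.673 for the kidney of panda 2 and 0.612 for that of panda 4, against 0.894 to 1.11 for pandas 1, 3 and 5.

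Other genes were high in the kidney of panda 4, and these names were chosen after the values were seen. DGAT2, which completes triglyceride synthesis, measured 528, 218, 12.2, 1269.8 and 107 FPKM in the kidneys, UCP1, the uncoupling protein of brown fat, 9.12, 5.28, 0, 25.4 and 6.85 FPKM, and PLIN4, a lipid droplet protein, 4.53, 0.988, 0.218, 14.2 and 0.662 FPKM. All 3 genes were highest in the kidney of panda 4 and lowest or listed at 0 in that of panda 3. Of these, UCP1 (-2.70 ± 0.63, adjusted p = 0.00382) was a DEG higher in the kidney, and DGAT2 (-2.34 ± 0.96, adjusted p = 0.0596) and PLIN4 (-1.29 ± 0.55, adjusted p = 0.0703) were not. With the animal as a block DGAT2 was a DEG (adjusted p = 0.0488). Whether they bear any relation to the low level of nephron genes was not tested.

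**Figure D4:**
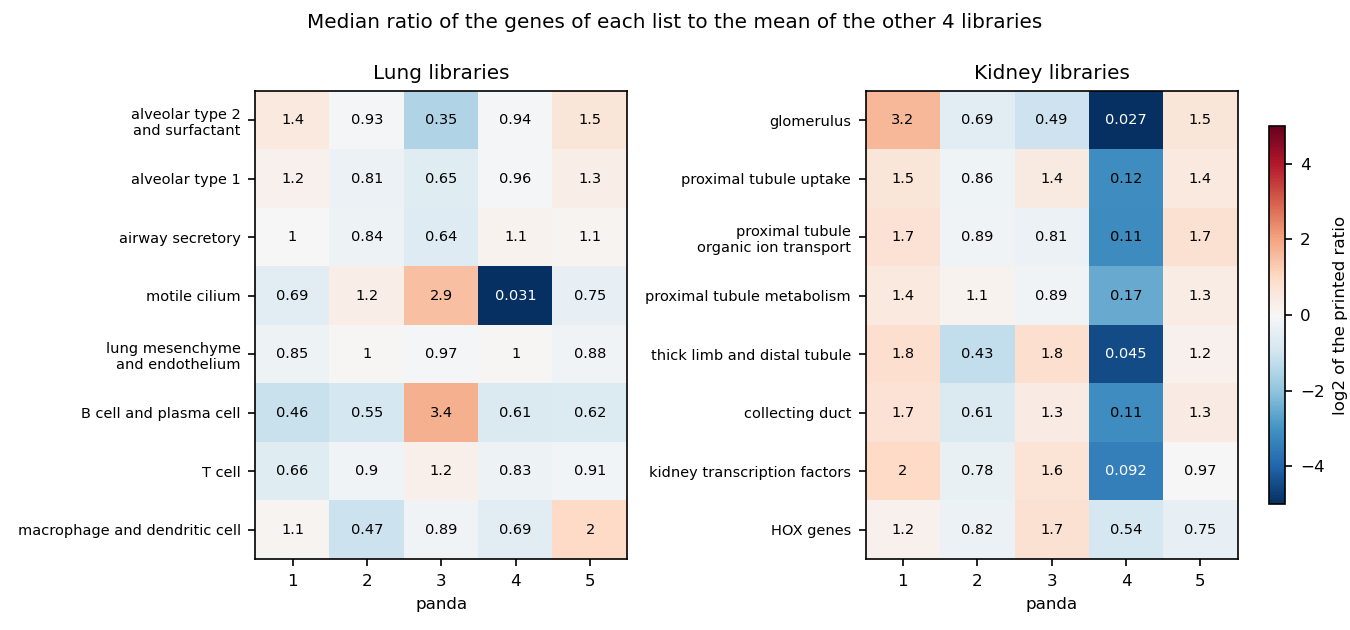
For each gene list (rows) and library (columns, by panda), the median over the list's genes of the ratio to the mean of the other 4 libraries of the same tissue, with the ratio printed and coloured by its log2. Motile cilium genes are at 0.031 in the lung of panda 4, and the nephron lists are between 0.027 and 0.17 in the kidney of panda 4 while the HOX genes are at 0.54.

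HOX genes, which set position along the body axis, were far higher in the kidney than in the lung. The 21 HOX genes with a name were all in the study's kidney list, so other HOX genes were not examined. Of these 18 were DEGs higher in the kidney and none higher in the lung (median -2.76), 19 without the kidney of panda 4, and the tissues overlapped in 1 gene only, HOXB6. HOXD8 measured 0.556, 1.37, 2.096, 0 and 0.57 FPKM in the lungs and 76.5, 42.5, 119, 30.5 and 86.6 FPKM in the kidneys (-5.18 ± 0.41, adjusted p = 1.07e-06). HOXA10 measured 37.4, 19.96, 29.3, 7.22 and 23.2 FPKM in the kidneys and was listed at 0 in 4 lungs (-4.42 ± 0.37, adjusted p = 1.75e-06). HOXC6 and HOXA9 differed by -4.38 ± 0.25, adjusted p = 8.92e-08 and -4.34 ± 0.29, adjusted p = 2.65e-07. HOXC5, HOXC8, HOXC9, HOXC10, HOXD10 and HOXD11 were listed at 0 in all 5 lungs, so their fitted differences depend on the pseudocount.

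The lung held some HOX genes of the middle of the clusters. HOXB6 measured 14.3, 24.6, 15.4, 11.5 and 12.7 FPKM in the lungs and 76.8, 77.9, 101, 14.9 and 44.5 FPKM in the kidneys and was not a DEG (-1.74 ± 0.44, adjusted p = 0.00623), and HOXA7 measured 3.17, 2.29, 3.35, 4.61 and 4.94 FPKM in the lungs and 40.4, 33.03, 38.6, 28.5 and 28.9 FPKM in the kidneys (-2.92 ± 0.26, adjusted p = 2.54e-06). Among paralog groups 8 to 11, by contrast, no gene reached a lung mean of 1 FPKM (highest 0.918 FPKM, 11 genes), while their kidney means ran from 1.90 to 71.0 FPKM. In paralog groups 1 to 7 the lung means ran from 0 to 15.7 FPKM over 10 genes.

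The kidney of panda 4 was not evenly low in HOX genes. Against the mean of the other kidneys, its 6 HOXC genes stood at 0.600 to 1.27 times, its 5 HOXA genes at 0.263 to 0.864, its 4 HOXB genes at 0.198 to 0.566 and its 6 HOXD genes at 0.0199 to 0.376. HOXC10, for example, measured 9.05, 9.63, 11.9, 9.91 and 7.19 FPKM in the 5 kidneys and HOXC9 13.9, 18.98, 15.3, 10.1 and 10.6 FPKM, whereas HOXD1 measured 30.2, 3.35, 24.9, 0.386 and 19.3 FPKM. Every HOXC ratio lay above every HOXD ratio.

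**Figure D5:**
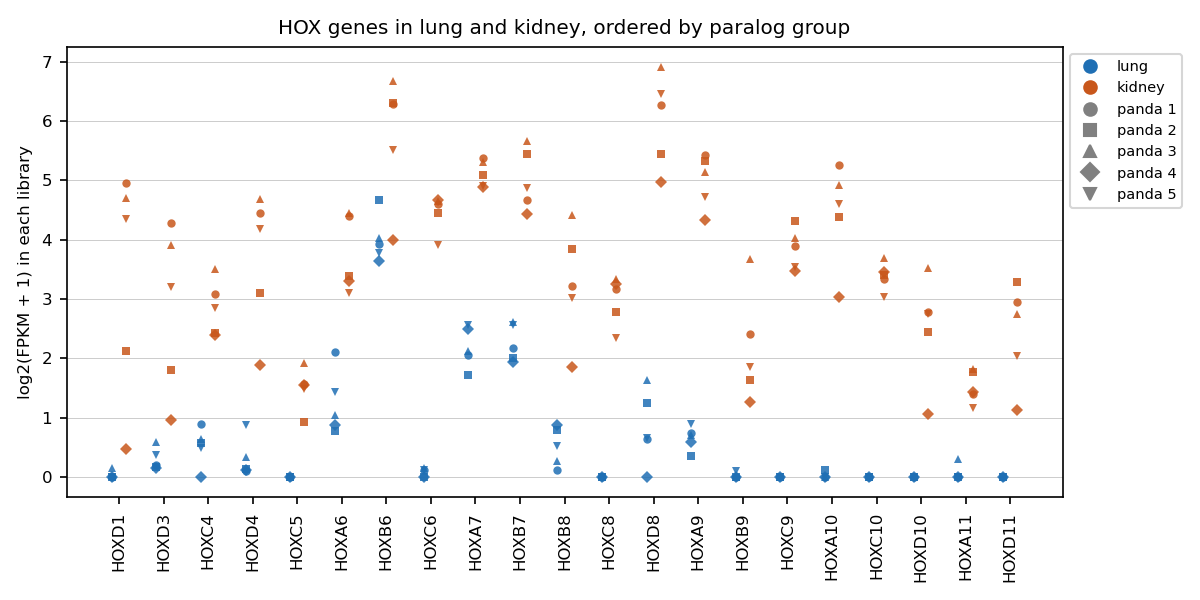
HOX genes ordered by paralog group on the x axis, log2(FPKM + 1) on the y axis, each point 1 library (blue lung, orange kidney, marker shape by panda). Lung libraries lie at or near 0 for most genes, HOXB6 overlaps, and the orange diamonds of panda 4 lie with the other kidneys for HOXC genes and below them for HOXD genes.

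Of the 18 tested kidney transcription factors, 12 were DEGs higher in the kidney and 1 higher in the lung (median -2.57), and without the kidney of panda 4 there were 16 and 1. PAX8 and PAX2 are paired box factors of the nephron. PAX8 measured 126, 92.4, 93.2, 14.7 and 86.1 FPKM in the kidneys and at most 0.356 FPKM in a lung (-5.96 ± 0.48, adjusted p = 1.16e-06), and PAX2 measured 24.03, 9.16, 20.3, 0.975 and 8.28 FPKM in the kidneys and was listed at 0 in all lungs. The homeobox genes EMX1 (-4.86) and EMX2 (-3.75) and the POU factor POU3F3 (-3.85) followed. The exception was GATA6, a zinc finger factor with a known role in lung epithelium and vessels, which measured 68.4, 40.7, 19.9, 33.9 and 45.7 FPKM in the lungs and 4.48, 7.75, 5.08, 4.43 and 1.53 FPKM in the kidneys (2.92 ± 0.38, adjusted p = 5.57e-05).

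Genes of epithelial cells in general included DEGs in both directions, with 4 of 11 tested higher in the lung, 2 higher in the kidney and a median of -0.35. Without the kidney of panda 4 there were 4 and 3, with a median of -0.99. The list fixed 18 genes, of which 11 had a name. Among all named genes tested, 16.85% were DEGs higher in the lung and 22.71% higher in the kidney. The count of 2 is near that share and is not read as a result about epithelial genes. EPCAM, the adhesion molecule found on most epithelia, measured 93.5, 139, 135, 133 and 145 FPKM in the lungs and 211, 280.2, 459, 53.4 and 285 FPKM in the kidneys (-0.72 ± 0.45, adjusted p = 0.198). The simple-epithelium keratin KRT18 measured 272, 79.6, 58.9, 94.7 and 278 FPKM in the lungs and 266, 264, 282, 27.01 and 212 FPKM in the kidneys (-0.35 ± 0.64, adjusted p = 0.668), and its partner KRT8 differed by -1.25 ± 0.67, adjusted p = 0.143. The tissues overlapped in all 3 genes, and none was a DEG. For EPCAM the overlap came from the kidney of panda 4 alone, at 53.4 FPKM, and the other kidneys lay above every lung. KRT7, in contrast, measured 390.2, 223, 138, 230.4 and 339 FPKM in the lungs and 43.97, 66.9, 54.04, 2.98 and 30.97 FPKM in the kidneys (3.09 ± 0.63, adjusted p = 0.00166). CDH1, E-cadherin, was also higher in the lung, with 91.5, 143, 33.1, 115 and 77.9 FPKM against 23.3, 14.9, 27.8, 4.05 and 16.2 FPKM in the kidneys (2.41 ± 0.48, adjusted p = 0.00128), although its call was lost after TMM scaling (1.94). PKHD1, the fibrocystin gene of polycystic kidney disease, was higher in the kidney (-3.18 ± 0.57, adjusted p = 0.000684). The kidney of panda 4 was the lowest kidney for all 11 of these genes, at a median of 0.0939 times the other kidneys.

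The study listed 34 genes under both the lung and the kidney, 27 of them with a name. Between the tissues, 12 of these named genes were DEGs higher in the kidney, 8 were DEGs higher in the lung and 7 were not DEGs. A listing under both tissues did not mean a like level. On the lung side, besides CXCL17, SLC34A2, RTKN2 and KRT7, stood NAPSA, an aspartic protease that processes surfactant protein B, with 832, 423, 232, 607 and 1099 FPKM in the lungs and 113, 54.4, 60.4, 13.3 and 163 FPKM in the kidneys (3.18 ± 0.58, adjusted p = 0.000749). Complement component C5 differed by 4.24, the mucin MUC15 by 3.25 and coagulation factor F7 by 2.29. The libraries of the tissues overlapped for F7 only among these 8. On the kidney side, besides ACSM2B, HOXA6 (-2.48) and PKHD1, RBP4, the carrier of retinol in plasma, measured 70.7, 69.5, 58.5, 79.01 and 59.2 FPKM in the lungs and 1312, 1949.5, 504, 842 and 1247 FPKM in the kidneys (-3.97 ± 0.31, adjusted p = 1.04e-06). HSD11B2, which protects the mineralocorticoid receptor from cortisol, measured 11.8, 12.3, 3.76, 11.1 and 5.58 FPKM in the lungs and 234, 139, 158, 13.7 and 181 FPKM in the kidneys (-3.55 ± 0.64, adjusted p = 0.000667). The others were SLC38A3 (-5.77), a glutamine carrier, the proton pump subunit ATP6V0A4 (-4.67), LOC100472452 (-4.65), GP2 (-3.24), a relative of uromodulin, KNG1 (-2.68), kininogen, A3GALT2 (-2.36) and TSPAN1 (-2.30). Those that were not DEGs included, each with a kidney mean above the lung mean, SLC44A4 (-1.95), RIMS3 (-1.92), ATP6V0D2 (-1.91), TFCP2L1 (-1.66), SULT1C2 (-1.44) and ABCC11 (-0.79). In 17 of the 27 genes the lung and kidney libraries did not overlap.

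Markers of cell types from other organs were examined as well. Of 12 named hepatocyte genes 9 were tested, 5 of which were DEGs higher in the kidney (6 without the kidney of panda 4) and 1 higher in the lung. Over all named genes tested, 22.71% were DEGs higher in the kidney and 16.85% higher in the lung. APOA1, the main protein of high-density lipoprotein, measured 3947, 3566, 3276, 4115 and 4899.8 FPKM in the lungs and 111, 45.2, 161, 18.8 and 69.4 FPKM in the kidneys (5.91 ± 0.45, adjusted p = 7.49e-07). The 5 lungs lay within a narrow range, and APOA1 alone made up most of the summed level of the list in the lung, 3300 to 4919 FPKM. In the kidney APOH, a plasma glycoprotein, measured 134, 280.1, 257, 61.7 and 308 FPKM (-6.42 ± 0.48, adjusted p = 6.9e-07), FGB, the beta chain of fibrinogen, 40.3, 45.3, 40.9, 23.3 and 77.7 FPKM (-4.97 ± 0.35, adjusted p = 3.9e-07), and SERPINC1, antithrombin, 14.1, 7.18, 6.32, 1.01 and 15.2 FPKM (-2.30 ± 0.47, adjusted p = 0.00173). APOB, AHSG and FGG did not pass the filter in either tissue. Of 8 tested cardiomyocyte genes (12 named) 2 were DEGs higher in the kidney, which is near that share of all named genes. They were MYL3, a myosin light chain (-3.30 ± 0.55, adjusted p = 0.000386), and CKMT2, a mitochondrial creatine kinase (-3.21 ± 0.36, adjusted p = 1.67e-05). MYL3 measured 0.302, 0.124, 2.14, 3.13 and 4.96 FPKM in the lungs and 25.01, 41.5, 31.6, 6.75 and 36.6 FPKM in the kidneys. ACTN2 (-0.85) and TNNT2 (-0.50) were not DEGs.

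Finally, the difference between the tissues was compared between the young pandas 3 to 5 and the older pandas 1 and 2. The labels put the 2 groups apart in age, cause and year of death. No gene of the 17177 passed an adjusted p of 0.05 in limma (0 called, 0%), and 93 had an unadjusted p below 0.05 (0.541%). That share is under 5%, so the test could hardly call a gene, and nothing about likeness is read from the count of 0. The fit drew its variance trend over the mean difference of each gene. With a trend over the mean level, chosen after seeing the data, 0 were called and 103 had an unadjusted p below 0.05. For SFTPC the mean within-panda difference was 12.21 in the young and 13.13 in the older pandas, for AGER 6.90 and 6.79, and for MIOX -6.64 and -8.70. Without panda 4 there were 0 calls, with 212 genes at an unadjusted p below 0.05. Within the young pandas alone (3 libraries a tissue, those of panda 4 included) 1630 genes were DEGs between the lung and kidney. Within the older pandas (2 libraries a tissue) 2501 were. Since the groups differ in size and panda 4 is in 1 of them, the counts are not read as a difference with age.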

How the data were processed

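Messenger RNA of 5 tissues from 5 giant pandas was sequenced, and 10 libraries, the lung and kidney of each panda, were compared here. Per the study's methods the authors aligned reads to the ailMel1 genome with HISAT2, counted them with HTSeq and deposited FPKM values, with no further scaling stated. Whole reads per gene were recovered from these values within 0.05 reads for 24207 of the 24207 genes above 0 and gave the depth. Genes with a mean above 1 FPKM in the lung or the kidney were tested with limma 3.58.1 (variance trend) on log2(FPKM + 1), with Benjamini-Hochberg adjustment and the study's thresholds (adjusted p below 0.05, log2 difference beyond 2), where the study used a count test.

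On simulated data with 200 of 17177 genes changed by 3 on the log2 scale, 200 were called and 1 unchanged gene was. Its noise was independent, with no paired animals, outlying library or shift of the median. It therefore checks the procedure and not the calls in these data. The fit had no term for the animal, after the study's methods. Same-numbered libraries came from 1 animal, and their deviations from the tissue means correlated at r = 0.178 to 0.460 (5 pairs, across genes), against -0.307 to 0.278 for different pandas. The alternatives were other scalings, a pseudocount of 0.1, other filters, the animal as a block, all 25 libraries in 1 fit, each age group alone, limma-voom on the recovered reads, and each library left out in turn.

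Names came from the study's supplementary table (1763 usable). Named genes were the 12 largest differences without overlap in each direction, the 4 largest of each of 20 marker lists with members called against their list, and genes the study listed under both tissues. FOXJ1, EPCAM, KRT8, KRT18, CDH1, PLIN4, UCP1, DGAT2, SLC12A1, CLDN16, LRP2, CUBN, PAX2, HOXC9, HOXC10, HOXD1, HOXA7, HOXB6, CD79B, MS4A1, MYL2, SLC5A2, AQP1, CYP24A1, KL, CAPS, ACP5, CFTR and the families under other observations were added after their values were seen. Results for 9 of the genes so chosen are not reported here. The members and lists were chosen with earlier results of these data known.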

Additional observations from a re-analysis of the deposited data

Results flagged for a closer look

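Among 280 groups of 5 libraries (140 named genes in both tissues), 39 held a library set apart from the others. The rule was a gap to the nearest other library, as a share of the range, beyond the 95% limit of Dixon's test (0.71) on log2(FPKM + 1). Chance gives that in about 1 of 20 independent groups. The count cannot be set against this rate, since some genes were added after their values were seen. Genes of the same library also vary together. Of the 39, 29 were the kidney of panda 4, 28 of them at the low end.

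Genes of the nephron's carriers and channels in that kidney included, in FPKM, FXYD2 at 948 (others 7068 to 10438), SLC13A3 at 62.4 (others 208 to 301), SLC22A8 at 40.3 (others 197 to 321), SLC5A12 at 54.5 (others 265 to 341), SLC6A18 at 16.03 (others 193 to 391), SLC22A6 at 11.3 (others 88.4 to 149), SLC12A3 at 17.9 (others 151 to 262), RHCG at 24.5 (others 193 to 279), SLC38A3 at 16.8 (others 69.8 to 115), SLC44A4 at 4.99 (others 36.95 to 65.01), ATP6V0A4 at 12.6 (others 73.3 to 97.8) and KCNK5 at 24.6 (others 127 to 168). Enzymes and the peptide hormone followed with CCK at 176 (others 1451 to 2426), DAO at 44.1 (others 189.8 to 272), CA2 at 71.7 (others 322 to 533), SULT1C2 at 3.98 (others 17.2 to 26.8), HSD11B2 at 13.7 (others 139 to 234) and ACP5 at 22.4 (others 74.4 to 95.5). Genes of epithelial structure were CDH16 at 53.3 (others 480.2 to 842), KRT7 at 2.98 (others 30.97 to 66.9), KRT8 at 71.7 (others 497 to 788), KRT18 at 27.01 (others 212 to 282), TSPAN1 at 23.8 (others 180.1 to 388), CLDN2 at 42.2 (others 174 to 276) and MUC20 at 5.81 (others 31.5 to 57.3). Transcription factors were PAX8 at 14.7 (others 86.1 to 126) and EMX1 at 3.500 (others 37.5 to 90.1), and the muscle gene was MYL3 at 6.75 (others 25.01 to 41.5). FGF10 alone lay at the high end, with 1.76 FPKM.

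Among the lungs that of panda 3 stood below the others in LAMP3 at 279.9 (others 530.2 to 645), SFTPD at 82.7 (others 251 to 375), GPRC5A at 65.7 (others 173 to 230.2) and CCK at 1.04 (others 2.304 to 2.56), and above them in the B cell genes CD79B at 23.4 (others 3.49 to 4.57) and MS4A1 at 7.73 (others 0.966 to 1.91). The lung of panda 4 stood below in SCGB3A1 at 1.34 (others 69.2 to 279.5) and CAPS at 0.564 (others 30.5 to 54.8). Panda 1 had a low lung value in EPCAM at 93.5 (others 133 to 145), and the kidney of panda 3 was high in SFTPD at 4.78 (others 0 to 0.511).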

How the results depend on the processing

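The 2103 DEGs (1264 higher in the lung, 839 higher in the kidney) became 3719 (2373 and 1346) with a pseudocount of 0.1, 3814 (2499 and 1315) with limma-voom on the recovered reads, and 7989 (5661 and 2328) by adjusted p alone. Scaling moved the direction more than the total: the count higher in the lung was 790 with TMM factors, 804 with median-of-ratios factors and 799 with TMM factors and the animal as a block, and the share of calls higher in the lung went from 60.1% to 40.8%, 41.3% and 40.9%, and to 46.5% after quantile normalization. With the replicate block alone, the pairing by animal, there were 2111 DEGs (1271 and 840), and among named genes it changed only the call on DGAT2. Leaving out 1 library gave 1964 to 2399 DEGs, 1180 to 1343 higher in the lung and 758 to 1056 higher in the kidney, all 3 highest without the kidney of panda 4. The block without panda 4, chosen after seeing the data, gave 2383. The comparison of the difference between young and older pandas called 0 genes in limma in its main form, with TMM factors, without panda 4 and with the added variance trend, where 93, 123, 212 and 103 genes had an unadjusted p below 0.05.

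Of 121 named DEGs, 102 kept their call under all 25 alternatives that could be computed for them and none changed sign. CAPS, CD79B, CDH1 and F7 lost it under TMM scaling. Of 19 named genes that were not DEGs, 2 changed sign. FOXJ1 went from 0.58 to -0.16 without the kidney of panda 4, with a range of -0.16 to 1.53 on leaving out 1 library. MYL2 (0.40) ranged from -0.057 to 0.95 and was below 0 without the lung of panda 5 or the kidney of panda 1 or 2. The cause was not tested. Depth limits genes near 0, for which the log2(FPKM + 1) scale understates differences.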

Other observations

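Grouped by family name, a grouping made after the values were seen, solute carriers (SLC genes) lay mostly on the kidney side, with 45 of 77 tested named genes DEGs higher in the kidney, 28 not DEGs and 4 higher in the lung. Beside SLC34A2 the latter were SLC22A31 (5.81 ± 0.31, adjusted p = 5.02e-08) and the carriers of the transmitters noradrenaline and serotonin. SLC6A2, the noradrenaline carrier, measured 36.5, 54.7, 51.2, 56.2 and 21.3 FPKM in the lungs and at most 0.0321 FPKM in a kidney (5.40 ± 0.30, adjusted p = 7.2e-08), and SLC6A4, the serotonin carrier, 68.9, 24.4, 31.1, 33.8 and 55.8 FPKM in the lungs and at most 1.79 FPKM in a kidney (4.63 ± 0.38, adjusted p = 1.46e-06). Both were above every kidney in every lung. Names exist here only for genes the study listed under a tissue, so these are not shares of the whole families. Over all named genes tested, 22.71% were DEGs higher in the kidney and 16.85% higher in the lung.

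Claudins, which set what passes between epithelial cells, were all DEGs, 2 of 6 higher in the lung and 4 higher in the kidney. CLDN2, which lets cations and water pass in the proximal tubule, measured 246, 174, 196, 42.2 and 276 FPKM in the kidneys and at most 0.274 FPKM in a lung (-7.19 ± 0.43, adjusted p = 1.37e-07), opposite to CLDN18. Water channels also split, with AQP4 and AQP8 (2.44 ± 0.37, adjusted p = 0.000186) higher in the lung, AQP1 and AQP6 higher in the kidney and 1 not a DEG. Of 14 potassium channel genes 5 were DEGs higher in the kidney and none higher in the lung, against 22.71% and 16.85% of all named genes tested. KCNK5, among the 5, measured 168, 134, 155, 24.6 and 127 FPKM in the kidneys and at most 5.62 FPKM in a lung (-4.46 ± 0.46, adjusted p = 9.2e-06). The mucins ran in opposite directions, MUC15 higher in the lung and MUC20 higher in the kidney (-2.81 ± 0.51, adjusted p = 0.000723). Among chemokine ligands 3 of 4 were DEGs higher in the lung, CCL13 among them (4.08 ± 0.63, adjusted p = 0.000207), at 91.03, 112, 8.66, 135 and 30.99 FPKM in the lungs, lowest in that of panda 3.

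Several plasma protein genes higher in the kidney or lung had their highest mean in the liver libraries of the same pandas. APOA1 had a mean of 10795 FPKM in the liver against 3961 in the lung and 81.04 in the kidney, RBP4 6880.0 against 67.4 and 1171, APOH 5019.8 against 1.41 and 208, and FGB 3697 against 0.439 and 45.5 (n = 5 libraries a tissue). APOA1 was thus higher in the lung while APOH and FGB were higher in the kidney. FOXJ1 had means of 0.00912 FPKM in the heart, 1.47 in the liver and 0.0775 in the spleen, against 58.6 ± 47.2 (SD) in the lung and 33.05 ± 30.1 (SD) in the kidney, each with n = 5.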
